A study of Mus musculus with 4 samples.

Results

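Lrp1, the transcript of the endocytic receptor LRP1, carried 77 of the 30763 peaks in a map of RNA bound by eIF4A3 in mouse embryonic stem cells. Its members were all peaks on the minus strand of chromosome 10 (build mm9) within a span that reaches 796 nt beyond the 5′ end and 717 nt beyond the 3′ end of the gene. Lrp1 was chosen by the measured list itself, because of the fold change of its highest peak and the number of its peaks, so its fold changes, p-values and peak count are given here as description, with no test. No peak lay on the plus strand within the span, and Lrp1 was the only gene that the annotation places there on the minus strand.

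The study used J1, an embryonic stem cell line of strain 129S4/SvJae with no genetic change named in the labels, grown feeder-free in a serum medium to which leukemia inhibitory factor was added. All cells were irradiated at 254 nm with 400 mJ/cm2, which links proteins to the RNA they touch. Of the 4 libraries, 2 came from RNA pulled down with an antibody to eIF4A3 and 2 were input RNA taken without antibody, and each pair was described as biological replicates. The deposited list gives 1 fold change and 1 p-value per peak as the authors called them and nothing per library, so no spread between replicates, read depth or cell marker could be checked, and differences below were not tested.

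LRP1 belongs to the low-density lipoprotein receptor family. It is a very large cell-surface receptor that takes up apolipoprotein E-bearing particles, protease-inhibitor complexes and α2-macroglobulin. Ligands bind mainly to clusters of class A repeats, small cysteine-rich modules that hold calcium through acidic residues. Between the clusters stand β-propellers built from YWTD repeats, which serve in the release of ligand in acidic endosomes, and the cytoplasmic tail carries NPxY motifs that adaptor proteins bind. eIF4A3 is the RNA-gripping helicase of the exon junction complex, which splicing deposits on messenger RNA about 24 nt upstream of each exon junction. A long transcript of many short exons therefore offers many places where the complex is known to be laid down.

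Every peak base in Lrp1 fell inside an exon. The exon model at hand is on GRCm38, so a single constant shift was sought that places the mm9 peaks on it, using only the 83 peaks within 500 kb outside the span. A shift of 562944 nt put 2573 of their 2573 bases into exons of the same strand, in 16 genes, and no other shift up to 1000 kb either way reached that number. More than 200 nt away from it, the best shift reached 38.1%. The same shift put 2046 of 2046 Lrp1 peak bases (100%) into exons of its longest coding transcript and 0 into introns, although exons make up 17.9% of the 82988 nt of the gene. All 2046 bases were coding. For the Lrp1 peaks, the best shift more than 200 nt away from the chosen one put 64.1% of bases into same-strand exons. With the chosen shift both sets stood at 100%. The sources used here do not say whether the peak calling searched introns at all or cut peaks at exon ends.

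**Figure D1:**
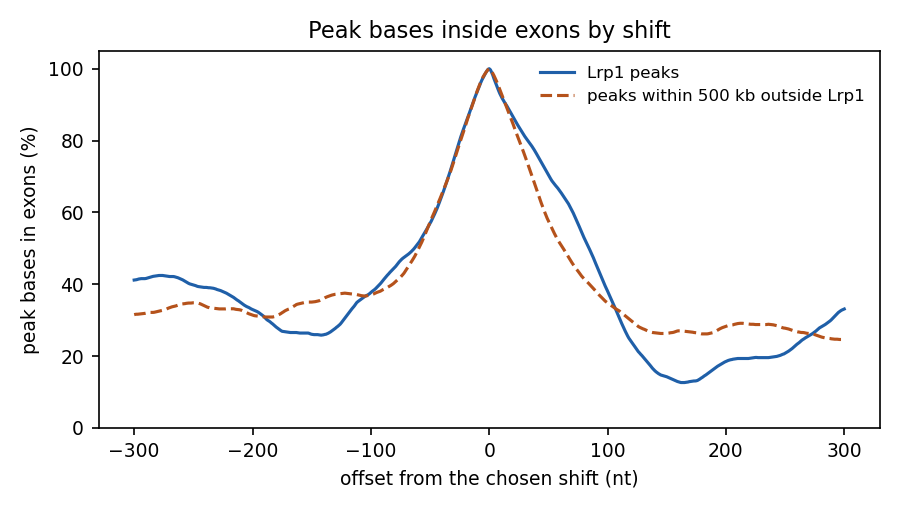
Share of peak bases inside same-strand exons (vertical axis, percent) against the offset in nt from the chosen shift (horizontal axis), for the 77 Lrp1 peaks (solid) and the 83 peaks outside Lrp1 (dashed). Both curves reach 100% at an offset of 0 and fall on either side.

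On GRCm38, Lrp1 spans chr10:127538161-127621148 on the minus strand, with 89 exons and a spliced length of 14888 nt that codes for 4545 residues. Peaks lay in 43 of the 89 exons and covered 13.7% of the spliced length. They were concentrated in the middle: 41 of the 47 exons from exon 13 to exon 59 held a peak, and the exceptions were exons 25, 38, 40, 55, 57 and 58. Some exons counted as holding a peak were barely covered, with 1 nt in exon 54 and 3 nt in exon 39. Over the whole transcript, 38 of the 43 exons with a peak held at least 10 nt of peaks. Upstream of exon 13, peaks lay in exons 3 and 4 alone, leaving exons 1 and 2 and the 8 exons from 5 to 12 without a peak. Downstream, none of the 30 exons from 60 to 89 held a peak. The 4977 nt after the final peak make up 33.4% of the spliced transcript and include the longest exon, the terminal exon 89 of 930 nt. The list is limited to peaks above its own minimum, so an exon with no listed peak is not shown to be free of eIF4A3.

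**Figure D2:**
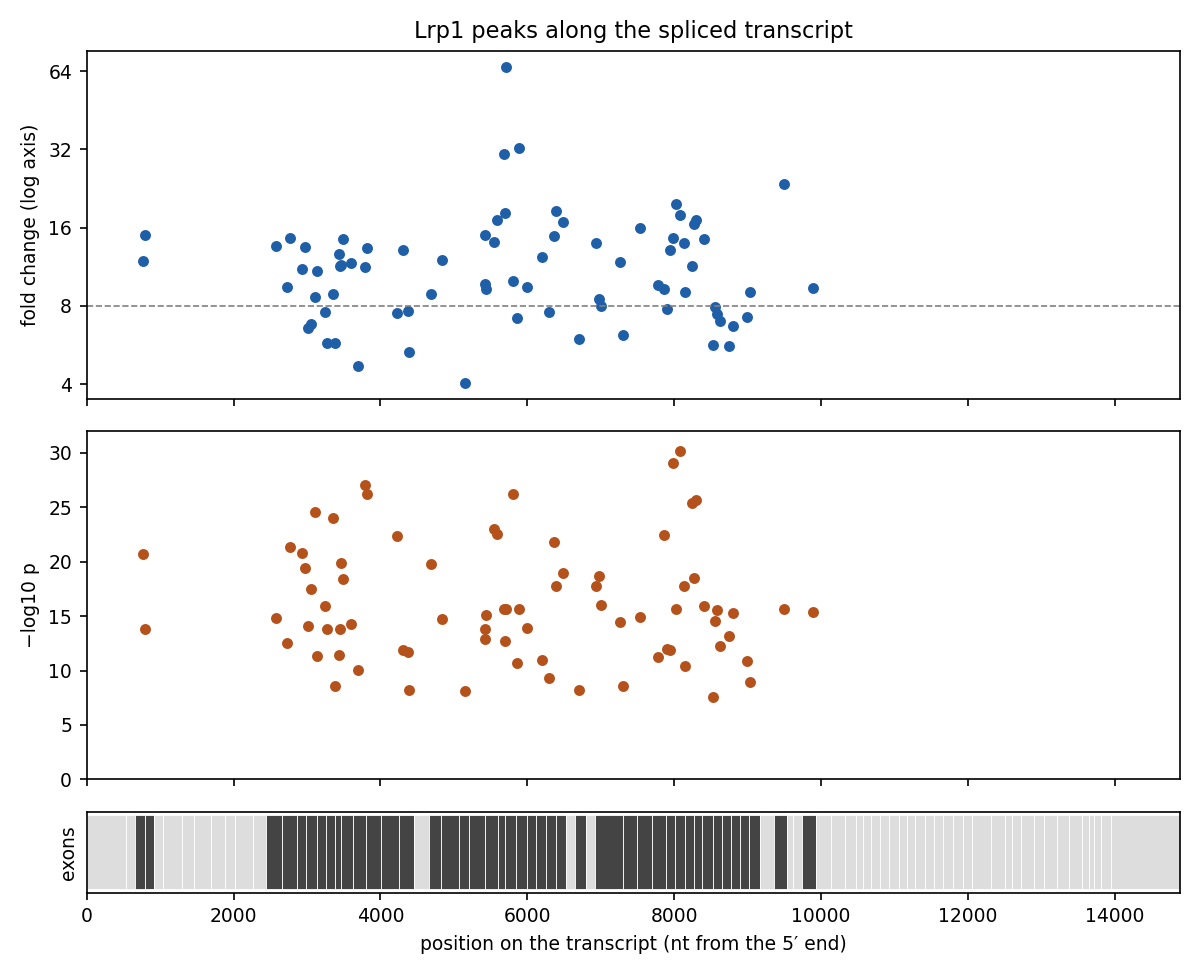
Fold change (top, log axis, dashed line at 8-fold) and −log10 p (middle) of the 77 Lrp1 peaks against position on the spliced transcript in nt, with the exons drawn below, dark where they hold a peak and light where they do not. Peaks run from exon 3 to exon 59, and the last 30 exons hold none.

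Several exons show how peaks sat on the spliced RNA. The letters are those of the GENCODE M21 transcript (GRCm38, strain C57BL/6J), read 5′ to 3′ by exon number, and capitals mark the bases that the shifted peaks cover. Exon positions are on GRCm38, and peak positions further on are on mm9 as in the list. The J1 line is of another strain, so its own letters may differ in places. Exon 16 (chr10:127584613-127584753) is shown as the most completely covered exon, with 139 of 141 nt in 3 peaks. The stretch from exon 3 (chr10:127610343-127610480) to exon 4 (chr10:127607946-127608065), nt 733 to 822 of the transcript, is shown because 2 peaks meet at its junction. Exons 31 (chr10:127572749-127572843), 32 (chr10:127572417-127572566) and 33 (chr10:127571889-127572029) hold the 3 highest fold changes, exon 46 (chr10:127558831-127558959) the highest −log10 p, and exon 59 (chr10:127553692-127553879) the last peak.
Exon 16: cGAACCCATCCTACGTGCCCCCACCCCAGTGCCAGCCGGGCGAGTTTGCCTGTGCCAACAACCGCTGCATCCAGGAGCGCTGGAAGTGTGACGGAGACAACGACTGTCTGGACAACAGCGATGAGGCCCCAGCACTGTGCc
Exon 3 end and exon 4 start: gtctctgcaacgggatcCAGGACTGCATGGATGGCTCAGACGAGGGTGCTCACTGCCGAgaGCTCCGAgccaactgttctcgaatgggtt
Exon 31: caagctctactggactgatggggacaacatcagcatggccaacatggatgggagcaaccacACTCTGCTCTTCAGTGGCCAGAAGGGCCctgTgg
Exon 32: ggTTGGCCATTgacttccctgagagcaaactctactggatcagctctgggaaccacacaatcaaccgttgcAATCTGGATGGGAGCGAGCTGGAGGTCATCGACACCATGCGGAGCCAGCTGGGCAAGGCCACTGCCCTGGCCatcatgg
Exon 33: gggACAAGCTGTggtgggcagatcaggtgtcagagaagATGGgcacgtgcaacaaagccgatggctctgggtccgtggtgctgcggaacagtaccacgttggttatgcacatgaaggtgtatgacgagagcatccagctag
Exon 46: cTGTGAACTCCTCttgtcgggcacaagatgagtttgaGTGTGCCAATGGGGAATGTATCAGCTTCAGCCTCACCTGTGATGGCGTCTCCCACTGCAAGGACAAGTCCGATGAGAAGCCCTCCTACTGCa
Exon 59: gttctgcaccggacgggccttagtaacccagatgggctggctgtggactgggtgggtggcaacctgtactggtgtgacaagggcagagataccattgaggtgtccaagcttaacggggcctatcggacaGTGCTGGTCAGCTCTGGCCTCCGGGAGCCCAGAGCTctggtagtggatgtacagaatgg

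In exons 16, 32 and 46 and at the junction of exons 3 and 4, the capitals come to within a few bases of exon ends, while in exon 59 they lie away from both ends and exon 33 is bare for its last 99 nt. Exon 16 is covered from its second base to its next-to-last. In the exon 3 to exon 4 stretch, 42 covered bases leave 1 base bare before the junction and 7 more leave 1 base bare after it, although the intron between them is 2277 nt long. Exon 32 is covered near both ends, by 9 nt after its second base and by 72 nt that leave the last 7 nt bare, and its middle is bare.

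The fold changes of Lrp1 peaks ranged from 4.03 to 66.6, with a median of 11.1 and quartiles of 7.67 and 14.4. The median over the whole list was 6.57. At least 8-fold with p at most 0.001 was reached by 54 of the 77 peaks (70.1%), against 32.3% of all peaks. At 16-fold with p at most 1e-05 there were 12 Lrp1 peaks (15.6%), against 3.65% of all peaks. These shares come from the values that led to the choice of the gene. The −log10 p ranged from 7.60 to 30.1 with a median of 15.3, and the median over the whole list was 10.4. Lrp1 peaks were 1 to 72 nt wide, with a median of 25 nt and quartiles of 9 and 39 nt. Over the whole list the median was 32 nt and the quartiles 16 and 52 nt. In Lrp1, 22 peaks were at most 10 nt wide, and the share of all peaks at that width is not given here. Joining peaks within 50 nt gave 51 sites, 33 of them single peaks, with a median width of 39 nt. The shortest intron is 76 nt, longer than this limit, so no site could hold peaks of different exons.

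The 5 highest fold changes lay in exons 32, 33, 31, 56 and 46. The highest, 66.6-fold over 9 nt in exon 32 (chr10:127009612-127009620 on mm9), ranked 5 in the whole list. In exon 33, a peak of 4 nt (chr10:127009044-127009047) reached 32.3-fold, and in exon 31 a peak of 28 nt (chr10:127009811-127009838) reached 30.6-fold. The 23 nt in exon 56 (chr10:126992029-126992051) stood at 23.5-fold and the 12 nt in exon 46 (chr10:126996003-126996014) at 19.7-fold. All 5 shared a −log10 p of 15.7, a value that 156 peaks of the list carry. The test is not given, so this repeated value may be a reporting limit and the p of these 5 peaks only a bound. That was not tested. The first 3 of them lie within 226 nt of spliced RNA. The wide peaks of the same exons varied: the 72 nt of exon 32 stood at 9.96-fold with a −log10 p of 26.2, and the 63 nt of exon 46 at 17.8-fold with 30.1.

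The most common fractional part of the log2 fold change among peaks outside Lrp1 stands for a factor of 1.00858. Divided by it, the top values became ratios of small whole numbers. The exon 32 peak came to 66 and the exon 33 peak to 32, the exon 46 peak to 39 over 2, and the exon 31 and exon 56 peaks to 91 over 3 and 70 over 3. Over all Lrp1 peaks, 12 of 77 came to a whole number and 62 to a ratio with a denominator of at most 10, each within 0.002 of a whole number after multiplying. The read numbers behind the ratios are not in the list. In 3 pairs, peaks in different exons shared both fold change and p to all digits: exons 4 and 29 (14.9-fold), exons 24 and 45 (13.1-fold) and exons 41 and 46 (14.0-fold). No matching counts of such ratios or pairs over the whole list are given here, so neither is shown to be particular to Lrp1.

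The peaks with the highest −log10 p as listed were other, wider peaks. They were 63 nt in exon 46 (chr10:126995916-126995978; −log10 p 30.1, 17.8-fold), 59 nt at the 3′ end of exon 45 (chr10:126996153-126996211; 29.0, 14.6-fold) and 43 nt at the 3′ end of exon 21 (chr10:127015588-127015630; 27.0, 11.3-fold). The widest were the 72 nt of exon 32 (chr10:127009480-127009551), the 63 nt of exon 46 and the 62 nt of exon 44 (chr10:126997028-126997089). The lowest fold changes were 4.03 in exon 28, 4.71 in exon 21 and 5.30 in exon 24. Across the 77 peaks, −log10 p went with width at a Spearman rho of 0.754 and with log2 fold change at 0.478, while log2 fold change and width stood at -0.014. These peaks share their transcript and libraries, so the correlations are descriptions. The order and the correlations use −log10 p as listed. They include the 5 peaks at the shared value of 15.7, whose place is uncertain if that value is a limit.

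Coverage was highest a short way upstream of exon 3′ ends. Over the 43 exons with a peak, all of them internal, 52.8% of the bases 21 to 30 nt before the 3′ end were covered, and 52.3% of those 31 to 40 nt before it. The share was 33.7% in the last 10 nt and 18.6% at 71 to 80 nt, the lowest of the 10-nt stretches counted from the 3′ end. Over all bases of these exons it was 29.7%. At single positions the maximum was 55.8% (24 of 43 exons), held from 26 to 33 nt, and at 24 nt, the place at which the complex is known to be deposited, it was 51.2% (22 of 43). The same distances counted from the 5′ end looked different: 26.0% of bases 21 to 30 nt in were covered, and 36.3% of the first 10. The median covered base lay 54.5 nt from the exon 3′ end, and the median of all bases in these exons lay 81 nt away. The last 50 nt held 47.5% of covered bases and 31.2% of all bases. With only the peaks past 8-fold, in 35 exons, coverage was 50.9% at 21 to 30 nt and 12.9% at 71 to 80 nt.

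**Figure D3:**
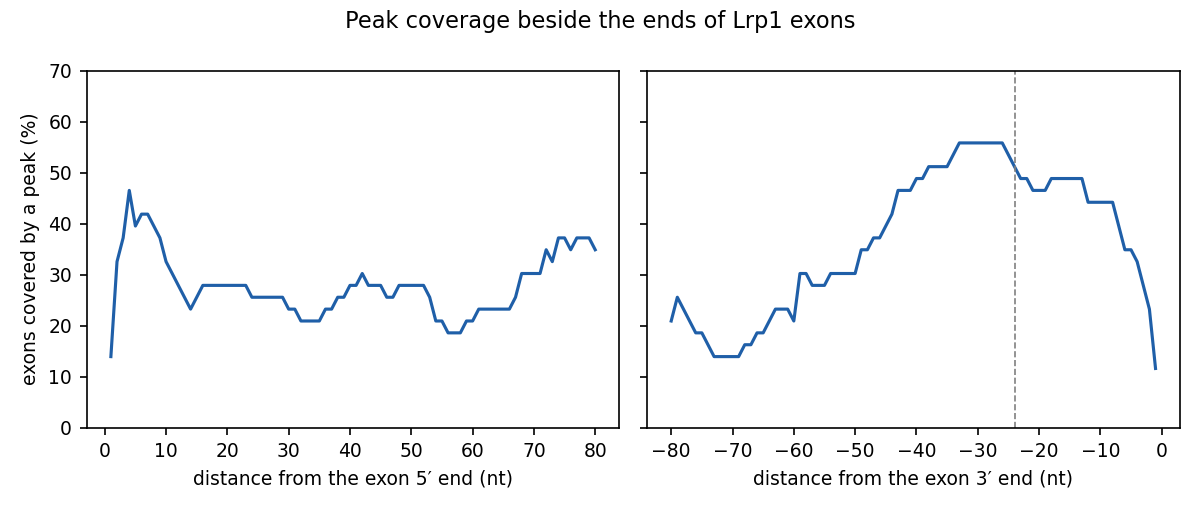
Share of the 43 Lrp1 exons with a peak (vertical axis, percent) that is covered at each distance in nt from the exon 5′ end (left) and 3′ end (right), with a dashed line at 24 nt before the 3′ end. Coverage from the 3′ end is at its maximum of 55.8% from 26 to 33 nt, and from the 5′ end it has a narrow maximum of 46.5% at 4 nt.

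Not every exon followed that average. Of the 43, 19 had a peak in their last 10 nt, 22 had a peak in their first 10 nt, 10 were counted in both, and 12 had neither. The 21 exons left bare at 24 nt included exons 22 and 48, whose covered bases lay toward the 5′ end. Exon 41, the longest exon with a peak at 378 nt, held 3 adjoining peaks over 94 nt at its 5′ end and another of 25 nt that left the last 24 nt bare. Exon 50 also held 4 peaks. The 21 peaks within 10 nt of a 3′ end had a median width of 41 nt, a median fold change of 11.4 and a median −log10 p of 20.7. The 23 peaks within 10 nt of a 5′ end had a median width of 10 nt, with medians of 9.41-fold and 14.1, and the 33 near neither end 24 nt, with 9.65-fold and 14.8. The ranges of fold change overlapped, at 5.60 to 30.6, 5.65 to 66.6 and 4.03 to 32.3. Across the 77 peaks, −log10 p went with width (Spearman rho 0.754). Whether −log10 p differed between these classes apart from width was not tested.

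Many peaks that are far apart in the gene lie side by side on the spliced RNA. At 36 of the 88 junctions both neighbouring exons held a peak, and at 15 of these the nearest peaks left at most 10 bases of spliced RNA between them. The introns at these 36 junctions had a median of 345.5 nt. The end of exon 15 and the start of exon 16, split by an intron of 3315 nt, were separated by 4 bases of spliced RNA. No bases at all were left between peaks at the junctions of exons 21 and 22, 36 and 37, and 47 and 48. With peaks joined within 5 nt on the spliced transcript, the 77 became 49 blocks, of which 13 crossed a junction. The longest ran for 237 nt from exon 15 through exon 16 into exon 17, in 6 peaks. Of 9 gaps of 60 to 150 nt between neighbouring peaks in the gene, 2 held an intron and 7 lay within an exon.

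Coverage varied along the transcript in blocks of exons. Peaks covered 47.2% of the spliced bases of exons 13 to 20, 20.6% of exons 21 to 30, 19.5% of exons 31 to 40, 35.7% of exons 41 to 50 and 12.1% of exons 51 to 59. Median fold changes in these groups were 11.0, 9.71, 14.9, 11.4 and 8.17, and the median −log10 p were 15.4, 14.7, 15.7, 15.7 and 14.2. The median of 15.7, for exons 31 to 40 and exons 41 to 50, is the repeated value that may be a reporting limit. Spearman's rho with position on the transcript was 0.021 for log2 fold change and -0.088 for −log10 p over the 77 peaks. The last peak, in exon 59 (chr10:126990771-126990806), still stood at 9.38-fold with a −log10 p of 15.3. The first, in exon 3 (chr10:127047400-127047441), stood at 11.9-fold with 20.7. The nearest listed peaks of this strand outside the span lay 32601 nt downstream, at 4.54-fold, and 540800 nt upstream, at 6.95-fold.

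**Figure D4:**
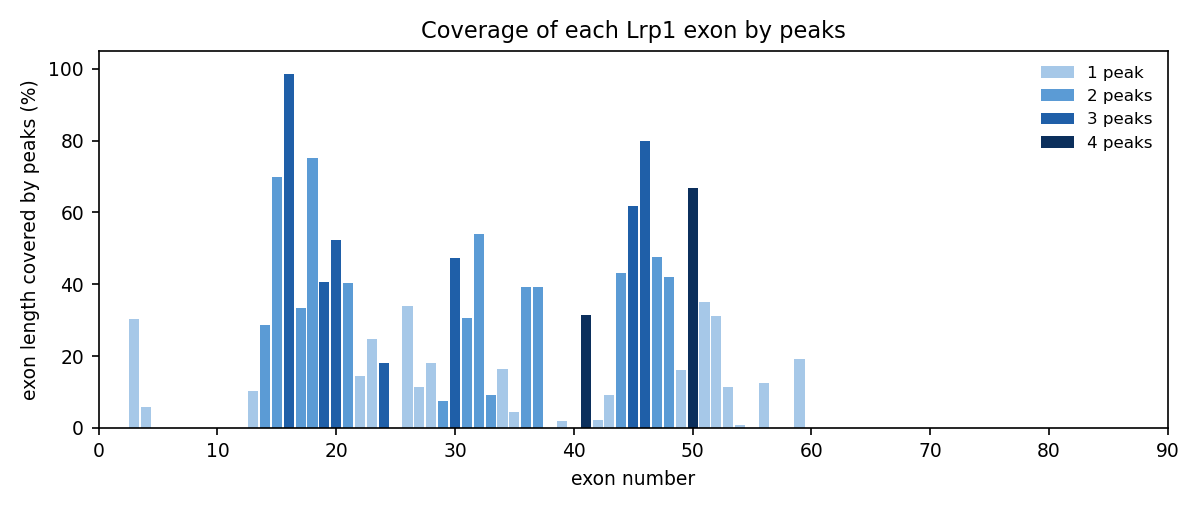
Share of each exon's length covered by peaks (vertical axis, percent) for exons 1 to 89 (horizontal axis), shaded by the number of peaks in the exon. Coverage is highest in exon 16 at 98.6% and exon 46 at 79.8%, and exons 60 to 89 are at 0.

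Protein modules were set beside the exons that code for them. The acidic signature of a class A repeat, a cysteine followed after 3 residues by serine, aspartate and glutamate, was found 26 times in the translated transcript, and 15 of these (57.7%) lay in exons with a peak, beside 48.3% of all exons that held one. The signatures fell in groups. Exons 16 to 22 carried 7, all in exons with peaks, and exons 46 to 55 carried 8, of which exon 55 alone had no peak. Every exon from 16 to 22 and from 46 to 54 held a peak, with or without a signature. These group counts therefore follow from the region and do not set signature exons apart from their neighbours. The 9 signatures in exons 63 to 73 lay wholly within the stretch that had no peak. Of 15 matches to the YWTD repeat, allowing phenylalanine in the first place and serine in the third, 9 (60%) lay in exons with a peak and 4 in exons 60 to 78. With so few matches, neither share is read as a difference from the 48.3% of all exons. Among the most covered exons, 16 (98.6%), 46 (79.8%) and 18 (75.2%) held a class A signature, and 15 (69.8%), 50 (66.7%) and 45 (61.9%) held none. Both NPxY motifs of the receptor's tail, in exons 88 and 89, lay in exons that held no peak, and the remaining match was in exon 16. These searches find exact matches and miss modules that differ from the pattern.

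Length and base composition were set out for exons with and without peaks. Exons with a peak had a median length of 141 nt (range 81 to 378), and the 44 internal exons with none had a median of 134 nt (65 to 269). Covered bases were 60.9% G or C, against 57.3% of the uncovered bases of the same exons and 57.4% in exons 60 to 89. Of the 4 bases, A differed most, at 18.9% of covered and 22.8% of uncovered bases, while T stood at 20.2% and 19.9%.

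Lrp1 was set beside the other groups of peaks in the list. Its ranks by peak number and fold change come from values that led to the choice of the gene, so they are description only. With peaks joined across gaps of up to 10 kb on 1 strand, 75 of its 77 peaks, all but those of exons 3 and 4, formed a single cluster of 35941 nt. Among the 796 clusters of at least 10 peaks it ranked 11 by number of peaks, 23 by median fold change (10.9 against a median of 6.60 over clusters) and 47 by the share of peaks past 8-fold (69.3% against 29.4%). By median −log10 p it ranked 211, and by median peak width 437.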

How the data were processed

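The authors deposited 1 peak list for 4 eCLIP libraries, with a log2 fold change and a −log10 p for each peak. Build mm9 and the tools STAR 2.6.1b and cutadapt 1.18 are listed in the submitters' processing notes. The peak caller, its test, any pooling of replicates and the counting of positions from 0 or 1 were not given in the sources used here. Start and end were read as both inside the peak. The members and all settings were chosen with earlier results of these data known.

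Peaks were placed on the exons of the Lrp1 transcript with the longest coding sequence (GENCODE M21, GRCm38) by 1 constant shift. It was the shift, of all those up to 1000 kb either way, that put the most bases of peaks outside Lrp1 into same-strand exons. The search was tested on simulated data, where 20 of 20 planted shifts were found. The simulated peaks were whole exons on a single strand, searched over a narrower range, an easier case than the real peaks. Fold changes are 2 to the power of the deposited log2 value. Class A, YWTD and NPxY patterns were sought in the translated coding sequence of that transcript, in place of the RefSeq protein that had been planned. The peaks named are those with the 5 highest and 3 lowest fold changes, the 3 widest, the 3 highest −log10 p and the first and last, and others are named as examples. The planned list of receptor-family genes and the cell markers were not analysed here, since the list has no gene names. Python 3.11.15, numpy 2.4.6, pandas 2.3.3, scipy 1.17.1, Biopython 1.88 and matplotlib 3.10.9 were used.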

Additional observations from a re-analysis of the deposited data

How the results depend on the processing

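No paired analysis was possible because each peak has 1 value over all libraries, which also means that no replicate could be left out. The number of Lrp1 peaks past the threshold was 54 at 8-fold and 12 at 16-fold, a stricter limit by construction. The share of peak bases in exons was 100% with the chosen shift, which the Lrp1 peaks alone also gave, and 92.4% and 92.9% with the shift moved 10 nt up and down. The median distance of covered bases from the exon 3′ end, 54.5 nt, was 48 nt for peaks past 8-fold, 57 nt in exons of 100 nt or more, and 59 and 51 nt with the shift moved up and down, always below the 81 or 82 nt of all bases. The weak trend of log2 fold change along the transcript turned, from a rho of 0.021 over peaks to -0.035 over the 51 sites, and was 0.040 without exons 3 and 59. The cause was not tested. The trend of −log10 p was -0.088 over peaks, -0.104 over sites and -0.120 without tied values. The number of exons with a peak, 43, ranged from 35 (peaks past 8-fold) to 43, and the number of sites from 44 to 64. Settings added after the data were seen were the limits for blocks across junctions (10 to 14 blocks, against 13), for exon ends (16 to 21 exons at the 3′ end, against 19, and 20 to 24 at the 5′ end, against 22) and the share covered at 21 to 30 nt with peaks past 8-fold. The list gives no read totals, so what depth limits cannot be measured.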
